A study of Mus musculus with 12 samples.

Results

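The 10 genes described here encode the route by which an integrin on neural cells releases TGF-beta to act on the vessels of the brain: the ligands Tgfb1, Tgfb2 and Tgfb3, the integrin chains Itgav and Itgb8, the receptors Tgfbr1, Tgfbr2 and Acvrl1, and the inhibitory SMADs Smad6 and Smad7. They were chosen by name for their known part in this route, with earlier results of these data already known. All 10 have an entry in each of the 2 deposited tables, which hold 23983 entries each. RNA was measured in 12 libraries of newborn mouse brain (postnatal day 0, mixed strain), 3 per group. Mice labelled as Reck vascular knockout (vKO), with the genotype written as Reck flex2/Δex1 and Tie2Cre, gave a cortex and a subcortex group, and so did mice labelled wild type (WT). Tie2Cre acts in endothelial and blood lineages, so a deletion need not stay within vessels. The labels give neither the Cre status of the WT mice nor the sex of any mouse, and do not say whether a library is 1 animal or whether both tissues came from the same brains. Reck encodes a membrane protein that helps brain endothelial cells to respond to the ligands Wnt7a and Wnt7b.

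TGF-beta is secreted in a latent form, in which a propeptide encloses the mature ligand. The integrin alphav-beta8, made of the chains encoded by Itgav and Itgb8, binds an arginine-glycine-aspartate sequence in the propeptide and frees the ligand. In the developing brain the integrin sits on neuroepithelial and glial cells, and the freed ligand signals through Tgfbr2 with Tgfbr1, and in endothelium also Acvrl1, to SMAD proteins in the nucleus. In mice, loss of either integrin chain from neural cells, or of the receptors from endothelium, is known to give malformed, bleeding brain vessels.

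None of the 10 genes was called different between vKO and WT brain at a q-value under 0.05 in the authors' deposited table, in cortex or in subcortex. In cortex 9 of them were tested and 0 were called, beside 19.5% of all 13594 tested genes. In subcortex 8 were tested and 0 were called, beside 0.714% of 13735. Smad6 in both tissues and Tgfb1 in subcortex were marked as too low to be tested. At an unadjusted p-value under 0.05 there were 0 of 9 in cortex (32.1% of all tested genes) and 2 of 8 in subcortex (6.31%), the receptor genes Acvrl1 and Tgfbr2, both with higher values in vKO (3.49% of all tested genes in that direction). A looser q-value limit of 0.1 also called 0 members, beside 26% of all tested genes in cortex and 0.91% in subcortex. That list is short and its members were chosen with these tables already known, so these shares are descriptions.

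Each gene has 1 deposited FPKM value per group. FPKM scales fragment counts by transcript length and library size, so levels can be compared between genes. Because replicates are not shown singly, values carry no SD, and sequencing depth is unknown. Ratios are log2((vKO FPKM + 1)/(WT FPKM + 1)), a scale on which changes of low genes look smaller than they are. The words rose and fell are kept for calls in the authors' deposited table. The libraries hold whole tissue, where fewer cells of a type and less RNA per cell cannot be told apart. The cortical transcription factor gene Emx1 had 15.3 FPKM in vKO and 13.3 in WT cortex, against 0.113 in vKO and 0.106 in WT subcortex. The thalamic gene Tcf7l2 had 33.2 FPKM in vKO and 37.0 in WT subcortex, against 1.07 in vKO and 4.71 in WT cortex. Reck itself was not lower in vKO, at 3.23 FPKM in vKO and 2.91 in WT cortex and 3.49 in vKO and 2.37 in WT subcortex. It was called in neither, and a value over the whole gene and all cells of the tissue does not check a deletion of exons in vessels. Xist, transcribed from the inactive X chromosome of female cells, had 18.6 FPKM in vKO and 0.0417 in WT cortex, and 10.2 in vKO and 0.0369 in WT subcortex. The Y-linked gene Eif2s3y had 15.8 FPKM in vKO and 30.4 in WT cortex, and 13.3 in vKO and 27.6 in WT subcortex, so vKO tissue held male as well as female RNA. WT tissue held almost no Xist RNA, so the sex makeup differed between the genotypes. The part of sex in the values below was not tested and cannot be told apart from that of genotype.

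**Figure D1:**
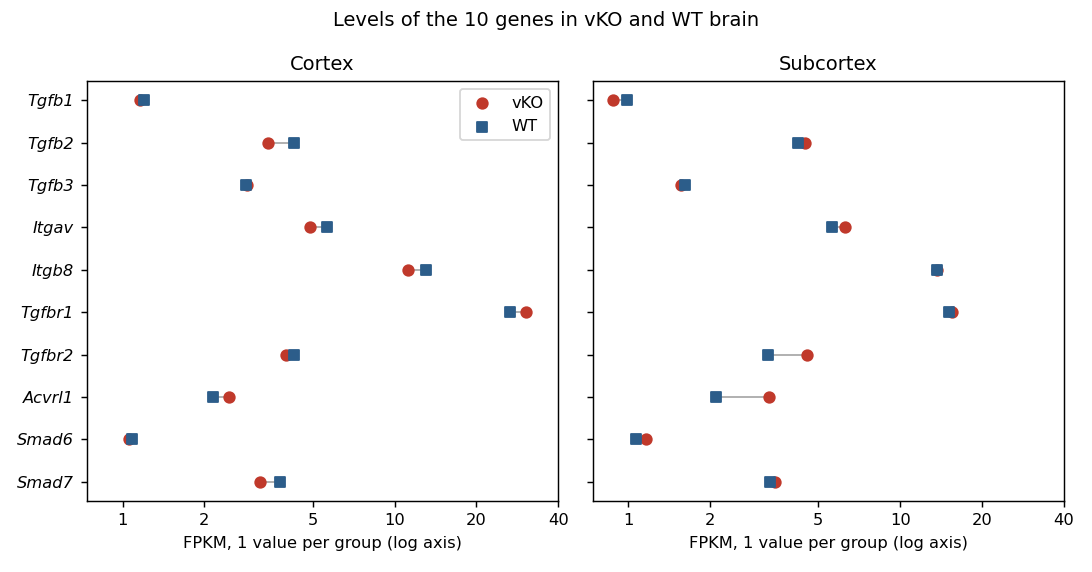
FPKM (log axis, 1 value per group) of the 10 genes in cortex (left) and subcortex (right), with vKO as circles and WT as squares. The circle and the square lie close together for most genes, from 1.05 FPKM for Smad6 to 30.4 FPKM for Tgfbr1 in vKO cortex, and are farthest apart for Acvrl1 and Tgfbr2 in subcortex.

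The ligands were expressed at low levels. Tgfb1, the ligand best known from blood and immune cells (chromosome 7, 25687002 to 25704996 in mm10), had 1.16 FPKM in vKO and 1.20 FPKM in WT cortex, with a log2 ratio of -0.02 (q = 0.946, the authors' deposited table). Its subcortex levels were 0.882 FPKM in vKO and 0.986 FPKM in WT, too low for their test. Tgfb2, a ligand of neurons and glia in the embryo (chromosome 1, 186623186 to 186705992), had 3.42 FPKM in vKO and 4.28 FPKM in WT cortex. Its log2 ratio of -0.26 was the lowest among the 10 genes in cortex, and its p-value of 0.0676 was the smallest there (q = 0.191, the authors' deposited table). In subcortex Tgfb2 had 4.45 FPKM in vKO and 4.21 FPKM in WT, a log2 ratio of 0.07. Tgfb3, the third ligand (chromosome 12, 86056743 to 86079041), had 2.86 FPKM in vKO and 2.85 FPKM in WT cortex, and 1.56 FPKM in vKO and 1.62 FPKM in WT subcortex. The first bases of Tgfb3 overlap Gm48008, a noncoding gene annotated on the opposite strand. The libraries were stranded, but the sources used here do not say whether strand was used in counting. Whether reads of both were kept apart is thus unknown.

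Tgfb2 made up the largest share of ligand RNA in all 4 groups. Of the summed FPKM of the 3 ligands it had 46.0% in vKO and 51.4% in WT cortex, and 64.6% in vKO and 61.7% in WT subcortex. Tgfb1 had 15.6% in vKO and 14.4% in WT cortex, and 12.8% in vKO and 14.5% in WT subcortex. The integrin-binding ligands Tgfb1 and Tgfb3 together were thus the smaller part in both subcortex groups and, narrowly, in WT cortex. In vKO cortex they were together the larger part. The sum was 7.45 FPKM in vKO and 8.33 FPKM in WT cortex, and 6.89 in vKO and 6.81 in WT subcortex.

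The ligands differ in whether integrin alphav-beta8 can bind them, which is why their coding sequences are shown here around that site. The coding sequences of Tgfb1 and Tgfb3 each hold 1 in-frame run of codons for arginine, glycine and aspartate, and that of Tgfb2 holds 0. The stretches below are 45 bases each from the GENCODE M21 transcripts of mm10, with the codons of the tripeptide in capitals. For Tgfb2 the capitals mark the codons that a protein alignment (BLOSUM62) placed opposite those of Tgfb1. The Tgfb1 stretch runs across the junction of exons 4 and 5 of 7 (chr7:25696995-25697168, plus strand). Those of Tgfb3 (chr12:86062147-86062191) and Tgfb2 (chr1:186630735-186630779) lie in exon 5 of 7, both on the minus strand.
Tgfb1: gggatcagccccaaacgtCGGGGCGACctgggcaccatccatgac
Tgfb3: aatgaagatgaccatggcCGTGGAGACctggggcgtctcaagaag
Tgfb2: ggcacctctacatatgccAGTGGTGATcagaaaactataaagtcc
The middle codon encodes glycine and the last aspartate in all 3, with different glycine codons, while the first encodes arginine in Tgfb1 and Tgfb3 alone. The ligand with the most RNA in each group is thus the one without the tripeptide.

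Of the integrin chains, Itgb8 had over 2 times the FPKM of its partner Itgav in every group. Itgb8, the beta chain that pairs with alphav (chromosome 12, 119162803 to 119238276), had 11.2 FPKM in vKO and 13.1 FPKM in WT cortex, with a log2 ratio of -0.21 (q = 0.330, the authors' deposited table). In subcortex Itgb8 had 13.64 FPKM in vKO and 13.60 FPKM in WT, with a log2 ratio of 0.00. Itgav, the alpha chain shared by several integrins (chromosome 2, 83724397 to 83806917), had 4.89 FPKM in vKO and 5.63 FPKM in WT cortex, and 6.29 FPKM in vKO and 5.62 FPKM in WT subcortex. Its log2 ratios were -0.17 in cortex and 0.14 in subcortex, and the authors' deposited table gives q-values of 0.399 and 0.999. The ratio of Itgb8 to Itgav FPKM was 2.29 in vKO and 2.33 in WT cortex, and 2.17 in vKO and 2.42 in WT subcortex.

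The receptors spanned the widest range of levels. Tgfbr1, the type I receptor of TGF-beta (chromosome 4, 47353305 to 47414924), was the most abundant of the 10 genes in every group. It had 30.4 FPKM in vKO and 26.5 FPKM in WT cortex, and its log2 ratio of 0.19 was the highest of the 10 genes there (q = 0.376, the authors' deposited table). Subcortex held less of it in both genotypes, 15.5 FPKM in vKO and 15.1 FPKM in WT. Tgfbr2, the type II receptor that binds the ligand (chromosome 9, 116087695 to 116175363), had 4.01 FPKM in vKO and 4.29 FPKM in WT cortex. In subcortex it had 4.52 FPKM in vKO and 3.27 FPKM in WT, with a log2 ratio of 0.37. The authors' deposited table gives it a p-value of 0.0157 and a q-value of 0.509. Acvrl1, the type I receptor ALK1 of endothelial cells (chromosome 15, 101128522 to 101145336), had 2.45 FPKM in vKO and 2.15 FPKM in WT cortex. In subcortex it had 3.30 FPKM in vKO and 2.10 FPKM in WT, 1.57 times the WT value, with a log2 ratio of 0.47. For this gene the authors' deposited table has p = 0.00305 and q = 0.218, so it was not called. Of all genes tested in subcortex, 1.38% had a smaller p-value than Acvrl1 and 3.07% a smaller one than Tgfbr2.

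The inhibitory SMADs, which block receptors of TGF-beta and BMP and are themselves induced by those signals, showed small differences. Smad7 (chromosome 18, 75367365 to 75395934) had 3.21 FPKM in vKO and 3.78 FPKM in WT cortex, with a log2 ratio of -0.18 (q = 0.399, the authors' deposited table). In subcortex it had 3.46 FPKM in vKO and 3.31 FPKM in WT, a log2 ratio of 0.05. Smad6, the inhibitor that acts mainly on BMP receptors (chromosome 9, 63953076 to 64022059), was untested, at 1.05 FPKM in vKO and 1.08 FPKM in WT cortex. In subcortex it had 1.16 FPKM in vKO and 1.07 FPKM in WT.

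**Figure D2:**
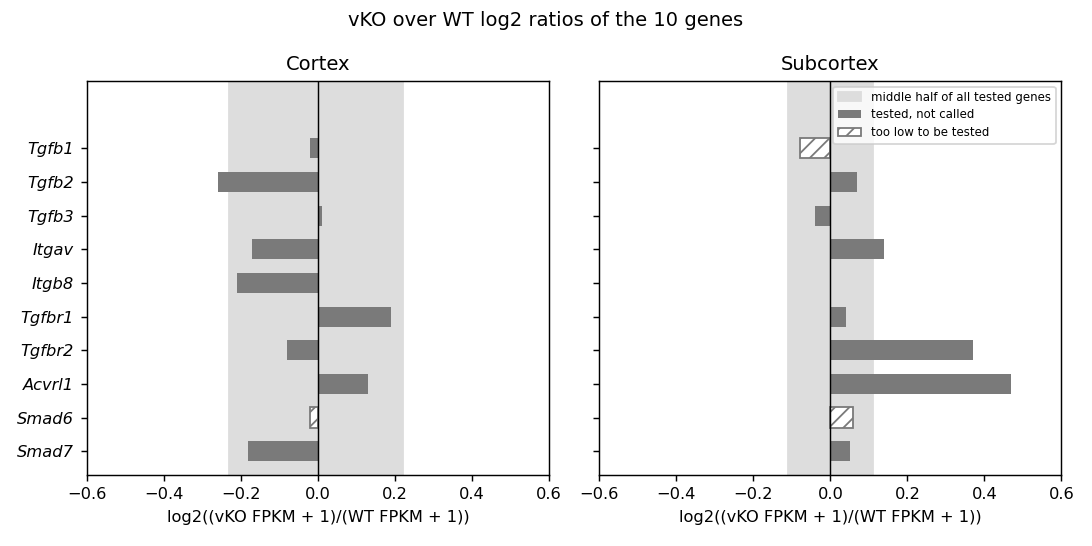
Log2 ratios of vKO over WT for the 10 genes in cortex (left) and subcortex (right). Filled bars are genes the authors tested and did not call, hatched bars genes too low to be tested, and the grey band runs from the lower to the upper quartile of all tested genes (-0.23 to 0.22 in cortex, -0.11 to 0.11 in subcortex). In cortex Tgfb2 alone reaches past the band, and in subcortex Acvrl1, Tgfbr2 and Itgav do.

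The promoters of the members in the reference genome were searched for sequences that SMAD proteins bind, in windows from 250 bases before to 50 after the gene start (RefSeq, GRCm38.p6). Of the 10 genes 7 matched an entry, with 8 windows, and Tgfb3, Acvrl1 and Smad7 did not. The palindrome GTCTAGAC, which reads the same on both strands, was in 0.213% of all 32851 windows and in 1 of the 8, that of Smad6. CAGAC, or GTCTG on the other strand, was in 49.6% of all windows and in 4 of the 8 (Itgb8, Tgfb2, Tgfbr1 and Tgfbr2), and GGCGCC was in 11.9% of all and in 1 of the 8 (Tgfbr1). None of the 3 words contains another. The Smad6 window is shown because it alone held the palindrome, in capitals, which starts 4 bases before the annotated start (80 bases, minus strand, chr9:64022056-64022135).
Smad6: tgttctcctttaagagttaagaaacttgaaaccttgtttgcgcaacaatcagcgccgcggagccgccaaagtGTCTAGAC
A match in letters does not show that the site is bound, and the FPKM of Smad6 differed by a factor of 0.973 in cortex and 1.09 in subcortex.

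Within the range of FPKM that the tested members span in cortex (1.16 to 30.4), the authors called 17.0% of 9968 genes, and the smallest absolute log2 ratio among those calls was 0.32. All 9 tested members were below that in size. In subcortex, 0.411% of the 7302 genes between 1.56 and 15.5 FPKM were called, and the smallest absolute log2 ratio among the calls was 0.54, above the 0.47 of Acvrl1. Ratios as small as those of the tested members were thus not called for any gene in these ranges. The smallest called ratio is not a detection limit for a single gene, and that differences are absent is not shown.

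The members leaned in different directions in the tissues only before the trend with transcript length and GC content, described below, was removed. With it removed, the median log2 ratio of the tested members was 0.04 in cortex and 0.09 in subcortex. Without that removal, 3 of the 9 tested log2 ratios in cortex were above 0 and 6 below, with a median of -0.08. In subcortex 7 of 8 were above 0 and 1 below, with a median of 0.06. No difference between tissues was tested. Over all tested genes the median was 0.00 in both tissues, and 50.4% and 49.8% of ratios were above 0. The tables were normalized separately, with a median log2 difference between cortex and subcortex of -0.02 in vKO and -0.05 in WT over 13169 genes. Set side by side, Tgfbr1 had 1.95 times its subcortex FPKM in cortex of vKO mice and 1.75 times in WT, and Tgfb3 had 1.84 times in vKO and 1.75 times in WT. Acvrl1 had 0.744 times its subcortex FPKM in vKO cortex and 1.02 times in WT cortex, and Tgfbr2 had 0.886 times in vKO and 1.31 times in WT. The order of levels within each group was alike at the top, with Tgfbr1, Itgb8 and Itgav first in all 4 groups. Below them the genes lay close together, and without a spread over samples neighbours in that order cannot be separated.

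Transcript length moved with the cortex ratios. Across 13456 tested cortex genes the Spearman correlation of ratio and length was -0.55, and genes are not independent replicates. It was 0.02 in subcortex. The members tested in cortex run from 2175 bases (Tgfb1, in the third decile of length, with a median log2 ratio of 0.16) to 8403 bases (Itgb8). Among genes of 6847 bases or more, the top decile of length, which holds Itgav, Tgfbr2 and Itgb8, 46.6% were called lower in vKO cortex and 0.520% higher, with a median log2 ratio of -0.35. With the trend of length and GC content removed, the cortex ratios of Itgav, Itgb8 and Tgfbr2 changed sign, to 0.08, 0.03 and 0.36, and the median of the members was 0.04. Tgfb2 kept a ratio of -0.20 and Tgfbr1 one of 0.26. In subcortex Acvrl1 and Tgfbr2 had 0.42 and 0.34 with the same step, against 0.47 and 0.37 without it. No cause of the trend was tested.

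**Figure D3:**
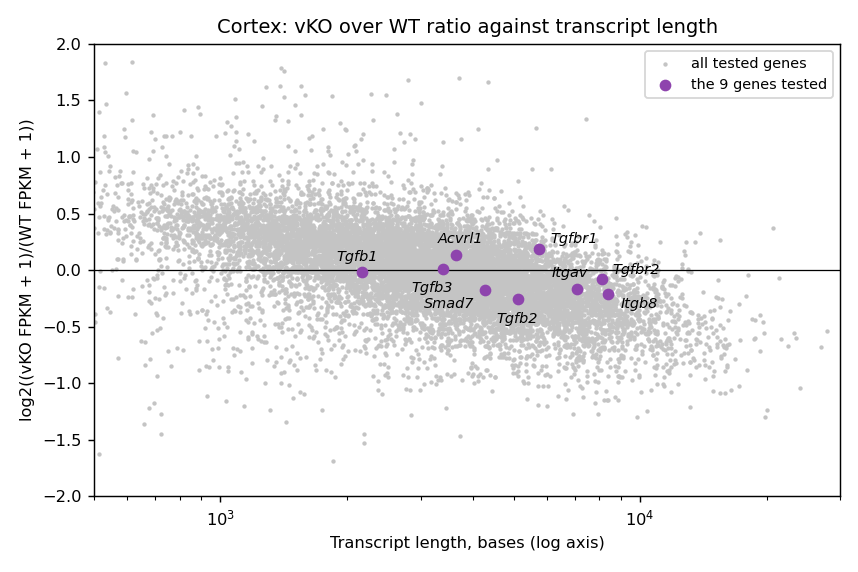
Log2 ratio of vKO over WT cortex against transcript length (log axis) for all tested genes in grey and the 9 tested members in purple. Ratios beyond 2 in size and lengths outside the axis are not drawn. The grey cloud slopes down to the right, and the longest members, Itgav, Tgfbr2 and Itgb8, lie in or above its lower right part.

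Markers of vessel cells moved as well, and in subcortex several did so upward. In vKO subcortex the authors' deposited table called 2 of 10 endothelial markers higher and 0 lower, beside 0.451% and 0.262% of all tested genes: Pecam1, a junctional adhesion molecule, at 10.1 FPKM in vKO, against 5.12 in WT, and Cdh5, the cadherin of endothelial junctions, at 6.45 in vKO, against 3.62 in WT. Their log2 ratios were 0.86 and 0.69, and those of the other 8 ran between 0.44 (Tie1) and -0.16 (Cldn5), below the 0.47 of Acvrl1, with a median of 0.19 over the list. The summed level of the 10 markers was 82.4 FPKM in vKO and 75.6 in WT subcortex, with none at 0. Of 8 tested mural cell markers 2 rose and 0 fell there, Pdgfrb (5.96 FPKM in vKO, 3.73 in WT) and Acta2 (2.77 in vKO, 1.14 in WT), and the summed level of all 9 was 67.9 FPKM in vKO and 60.2 in WT. In cortex, where 8.15% of all tested genes rose and 11.3% fell, 0 of the 10 endothelial markers rose and 4 fell. These were Kdr, Cldn5, Flt1 and Esam, with log2 ratios of -0.93, -0.90, -0.58 and -0.52. With the trend of length and GC content removed they were -0.70, -1.07, -0.11 and -0.69. The endothelial markers not called had ratios between -0.19 (Tek) and 0.34 (Pecam1). The median over the list was -0.10, or -0.04 after trend removal. The summed level of the list was 64.5 FPKM in vKO and 95.4 in WT cortex. Cldn5 alone made up 24.6 FPKM of it in vKO and 46.8 in WT. Of 9 mural markers 3 rose and 3 fell in cortex, with a summed level of 69.7 FPKM in vKO and 62.0 in WT. Rgs5 alone made up 30.7 FPKM of that in vKO and 27.6 in WT. The median log2 ratio of the mural markers was -0.15, or 0.18 after trend removal. Named to complete the count, Kcnj8, Myl9 and Acta2 rose, with ratios of 0.66, 0.59 and 0.52 (0.59, 0.25 and 0.35 with the trend removed). Notch3, Cspg4 and Anpep fell, with ratios of -0.76, -0.41 and -0.41 (-0.20, 0.15 and -0.28 with the trend removed). The part of vessel cells in the values of the receptors was not tested.

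**Figure D4:**
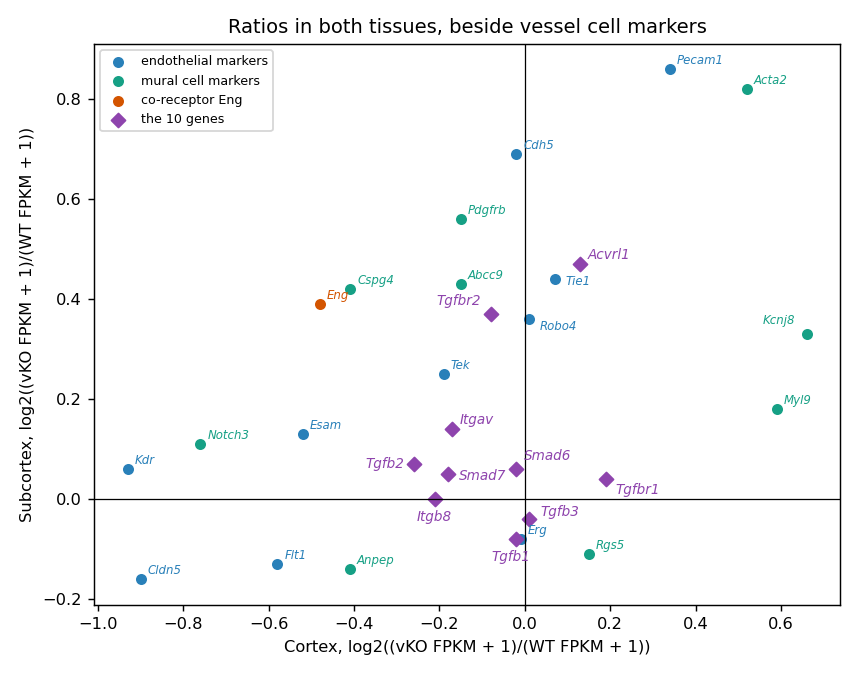
Log2 ratios of vKO over WT in cortex (horizontal) and subcortex (vertical) for the 10 genes (diamonds), endothelial and mural cell markers and the co-receptor gene Eng. Acvrl1 and Tgfbr2 lie higher than the other members, in the region of Tie1, Robo4 and Abcc9, while the ligands, the integrin chains and the SMADs lie near the origin.

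Blood and immune markers rose in cortex, where Tgfb1 was at 1.16 FPKM in vKO and 1.20 FPKM in WT. In vKO cortex the authors' deposited table called 7 of 10 microglial markers higher and 0 lower, beside 8.15% and 11.3% of all tested genes, with a summed level of 146.6 FPKM in vKO and 65.8 in WT and none at 0. Of 6 tested macrophage and monocyte markers 5 rose and 0 fell there, with 70.9 FPKM in vKO and 13.6 in WT over all 8. Pf4, a chemokine of platelets and macrophages, rose to 18.1 FPKM in vKO cortex, against 7.04 in WT. Of the other 5 platelet genes none was called, and Gp1bb, the only one tested, had 9.64 FPKM in vKO and 9.15 in WT cortex. Itga2b had 0.385 FPKM in vKO and 0.410 in WT, Ppbp and Gp9 at most 0.140 in vKO and 0.106 in WT, and Treml1 was listed at 0 in vKO. Erythroid genes rose as well, 2 of 4 tested, with a summed level of 5435 FPKM in vKO and 310 FPKM in WT cortex, mostly from beta-globin genes listed jointly (Hbb-b1 with Hbb-bs), near-identical copies that share reads. In subcortex, beside 0.714% of all tested genes, 0 of 4 erythroid genes and 0 of 9 tested microglial markers were called. Of 4 tested macrophage and monocyte markers 1 rose there, Lyz2, to 10.1 FPKM in vKO, against 4.86 in WT, and erythroid RNA summed to 632 FPKM in vKO and 525 in WT. FPKM is relative to all RNA of a library, and the part of these cells in the cortex ratios was not tested. Radial glia and astrocytes, the cells known to carry Itgb8, had 2 of 10 markers higher and 1 lower in cortex by the authors' deposited table, with a summed level of 1313 FPKM in vKO and 996 in WT. In subcortex 0 of those 10 were called, with 1802 FPKM in vKO and 1976 in WT. Fabp7 alone made up 1366 FPKM of these sums in vKO and 1598 in WT subcortex, and 965 in vKO and 723 in WT cortex. The median log2 ratio of these markers was 0.17 in cortex and 0.07 in subcortex.

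Around the 10 genes, 61 others of the TGF-beta and BMP pathways were listed by role. In cortex 12 of the 53 tested were called by the authors' deposited table, or 22.6%, near the 19.5% of all tested genes. Of these 4 rose (8.15% of all tested genes did) and 8 fell (11.3%). In subcortex 3 of 53 were called, or 5.66% beside 0.714% of all tested genes, and all 3 rose (0.451% of all). Beyond those of the target genes, no listed gene was called in subcortex. The lists were chosen with earlier results of these data known, so these shares are descriptions and do not show enrichment of the pathway.

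Of 8 tested genes of the latent complex and its activators, 2 were lower in vKO cortex and 0 higher by the authors' deposited table. Of all tested cortex genes 11.3% were lower and 8.15% higher. The median log2 ratio of the 8 genes was -0.22. Ltbp4, which holds latent TGF-beta in the matrix, fell to 3.54 FPKM in vKO cortex, against 5.76 in WT (log2 ratio -0.58; q = 0.00144, the authors' deposited table). Thbs1, thrombospondin, an activator of latent TGF-beta that does not need the integrin, fell to 4.50 FPKM in vKO cortex, against 7.11 in WT (log2 ratio -0.56; q = 0.000806, the authors' deposited table). After trend removal the ratios of Ltbp4 and Thbs1 were -0.23 and -0.30, and the median of the list was 0.05. In subcortex 0 of 7 were called, beside 0.714% of all tested genes. Furin, the protease that cleaves the propeptide, had 6.65 FPKM in vKO and 5.47 in WT subcortex. The microfibril gene Fbn1 had 4.86 in vKO and 3.96 in WT there.

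No other integrin chain that binds the tripeptide was called, of 4 tested in each tissue. Of all tested genes, 19.5% were called in cortex and 0.714% in subcortex. Itgb1, which also pairs with alphav, had 40.1 FPKM in vKO and 35.5 in WT cortex, and 38.3 in vKO and 34.1 in WT subcortex. Itgb5 had 9.35 FPKM in vKO and 7.71 in WT cortex, and 15.2 in vKO and 12.0 in WT subcortex. Itgb6, the other beta chain best known to activate TGF-beta, was too low to be tested, at 0.0141 FPKM in vKO and 0.0443 in WT cortex. It was picked after its values were seen.

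Receptors outside the members included 3 that fell in cortex, of 10 tested, with 0 that rose, beside 11.3% and 8.15% of all tested genes. The median log2 ratio of the list was -0.23, or -0.09 after trend removal. Bmpr2, the type II receptor of BMP, fell to 21.0 FPKM in vKO cortex, against 31.4 in WT (log2 ratio -0.56, q-value 0.000806 in the authors' deposited table). Acvr1, a type I receptor of BMP, fell to 10.3 FPKM in vKO, against 15.5 in WT (log2 ratio -0.54), and Acvr2b, a type II receptor of activin, to 6.10 in vKO, against 9.73 in WT (log2 ratio -0.60). With the trend removed these ratios were -0.32, -0.52 and -0.55. Eng, the endothelial co-receptor of TGF-beta and BMP, picked after its values were seen, was not called. It had 3.15 FPKM in vKO and 4.79 in WT cortex (q-value 0.0543, authors' deposited table), and 3.84 FPKM in vKO and 2.69 in WT subcortex (log2 ratio 0.39). In subcortex 0 of 9 receptors were called, beside 0.714% of all tested genes. Acvr2a had 28.3 FPKM in vKO and 29.1 in WT there, and Acvr1b had 25.6 in vKO and 22.4 in WT.

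BMP ligands and the SMADs that carry the signal were not called in either tissue. The share called among all tested genes was 19.5% in cortex and 0.714% in subcortex. Of 5 BMP ligands tested in cortex, Gdf11 had 7.78 FPKM in vKO and 7.56 in WT, and Bmp7 had 4.16 in vKO and 4.73 in WT. In subcortex Gdf11 had 7.58 FPKM in vKO and 9.13 in WT, and Bmp7 had 4.84 in vKO and 4.67 in WT. Gdf2 and Bmp10, the circulating ligands of ALK1, had at most 0.0395 FPKM in any group, and both were listed at 0 in WT cortex. They were named after their values were seen. Of 5 SMADs tested in cortex, Smad4, the shared partner, had 28.0 FPKM in vKO and 32.8 in WT, and Smad5, which carries BMP signals, had 19.6 in vKO and 25.2 in WT. The median log2 ratio of these SMADs was -0.32 in cortex, or -0.12 after trend removal. In subcortex Smad1 had 21.2 FPKM in vKO and 19.6 in WT, and Smad4 had 18.02 in vKO and 16.8 in WT. Of 9 regulators of SMADs 1 fell and 0 rose in cortex, beside 11.3% and 8.15% of all tested genes. A fall of 1 in 9 is near the share of all tested genes. Ski, a repressor that holds SMAD complexes inactive, fell to 19.0 FPKM in vKO, against 27.9 in WT (log2 ratio -0.53, q-value 0.00400 in the authors' deposited table; -0.20 with the trend removed). None of the 9 was called in subcortex, where the phosphatase gene Ppm1a had 60.6 FPKM in vKO and 57.7 in WT and Zfyve9, which presents SMADs to the receptor, 22.4 in vKO and 21.8 in WT.

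Of the 7 pathway lists, the target genes had the most calls in each tissue. The authors' deposited table called 4 of 12 higher and 2 lower in vKO cortex, beside 8.15% and 11.3% of all tested genes. The list's median log2 ratio was 0.33, or 0.19 after trend removal. Cyr61, a matricellular protein gene, rose to 6.29 FPKM in vKO cortex, against 2.56 in WT (log2 ratio 1.03; 0.86 with the trend removed), and the related gene Ctgf to 8.41 in vKO, against 4.98 in WT (log2 ratio 0.65; 0.56 with the trend removed). Id2, an inhibitor of helix-loop-helix factors induced by BMP, rose to 161.1 FPKM in vKO cortex, against 105.2 in WT (log2 ratio 0.61; 0.40 with the trend removed). Fn1, fibronectin, fell to 10.9 FPKM in vKO cortex, against 19.96 in WT (log2 ratio -0.81; -0.34 with the trend removed). The other 2 calls, named to complete the count, were Tgfbi, which rose by 0.56 on the log2 scale (0.49 with the trend removed), and Col4a2, which fell to 16.1 FPKM in vKO, against 22.0 in WT (log2 ratio -0.43; -0.09 with the trend removed).

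For subcortex the authors' deposited table called 3 of 12 target genes higher and 0 lower, beside 0.451% and 0.262% of all tested genes. None of the 3 was called at a q-value under 0.01. The list's median log2 ratio there was 0.39. Col4a1 and Col4a2, the collagen chains of basement membranes, rose to 37.2 FPKM in vKO, against 20.6 in WT (log2 ratio 0.82), and to 22.1 in vKO, against 13.4 in WT (log2 ratio 0.69). Ctgf rose to 5.18 FPKM in vKO subcortex, against 2.89 in WT (log2 ratio 0.67; q = 0.0323, the authors' deposited table), and was called in both tissues. Several of these genes also respond to other signals: Ctgf and Cyr61 are targets of YAP as well, and Col4a1 and Col4a2 are made by vessel cells. Id1 and Id3, direct targets of ALK1 and BMP signalling in endothelium, were not called and were picked after their values were seen. Id1 had 17.8 FPKM in vKO and 13.1 in WT cortex, and 26.2 in vKO and 19.8 in WT subcortex. Id3 had 31.0 FPKM in vKO and 26.9 in WT cortex, and 43.6 in vKO and 32.6 in WT subcortex. The cortex log2 ratios of Id1 and Id3, 0.42 and 0.20, were 0.01 and -0.02 with the trend removed. Their subcortex ratios, 0.38 and 0.41, were 0.37 and 0.38 with the same step.

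**Figure D5:**
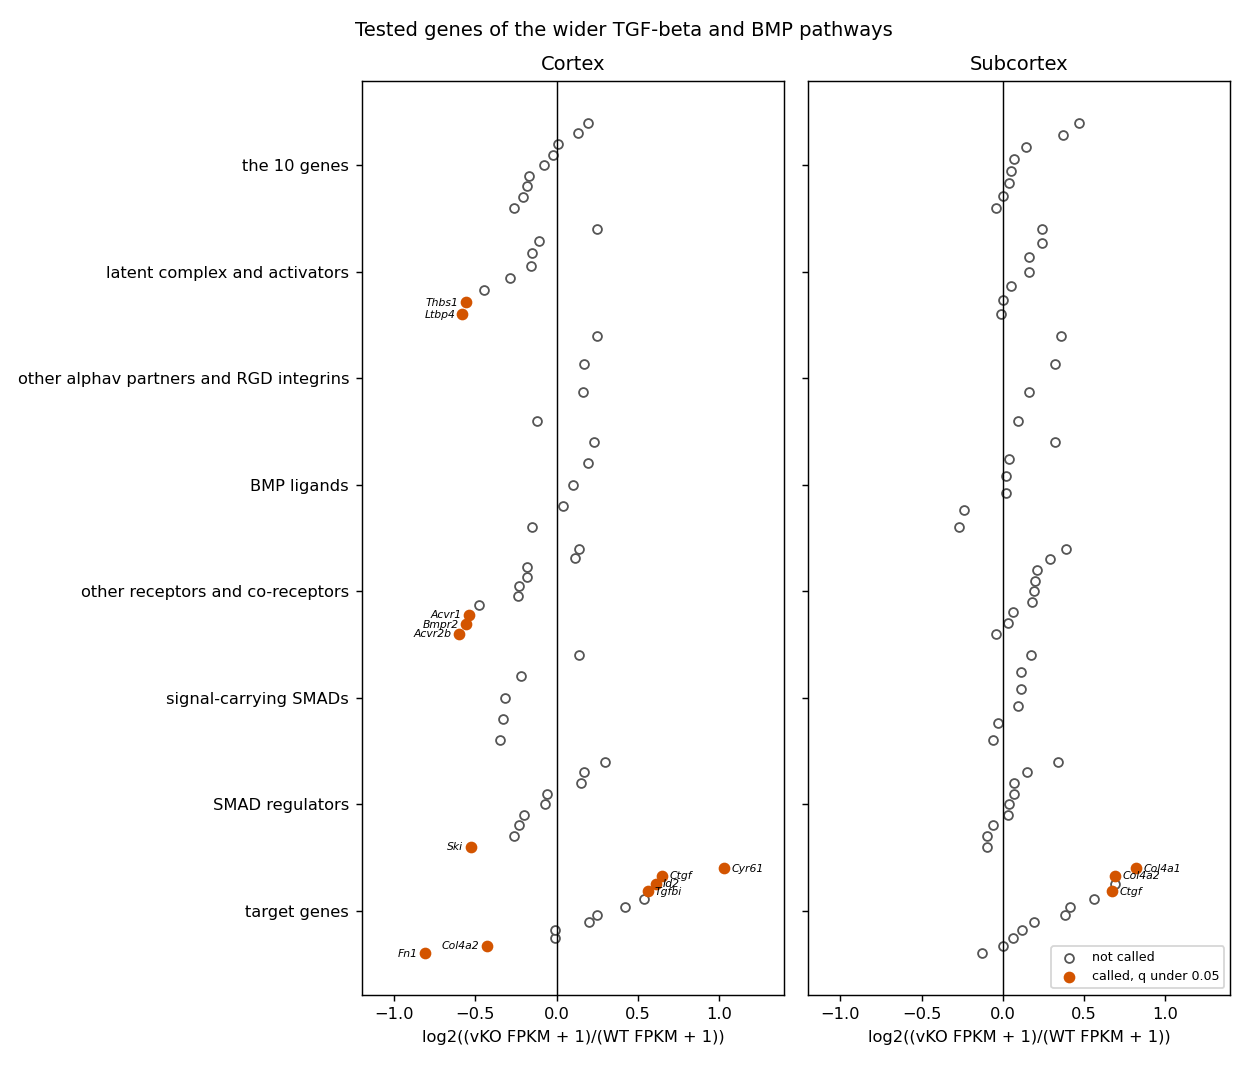
Log2 ratios of vKO over WT for the tested genes of each list in cortex (left) and subcortex (right), 1 point per gene, spread vertically by rank within its list. Orange points with names were called by the authors at a q-value under 0.05 and open points were not. The 10 genes, the integrins, the BMP ligands and the signal-carrying SMADs hold no orange point. In cortex the calls lie among the latent complex, the receptors, the SMAD regulators (Ski) and the target genes, and in subcortex among the target genes alone.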

How the data were processed

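Total RNA libraries were stranded, per the labels' protocols. The submitters' processing notes name mm10, HISAT2 2.0.1, Cufflinks 2.2.1 and Cuffdiff, without roles or order, and the annotation used is not given there. The deposited tables hold 1 FPKM value per gene and group and the authors' own p-values and q-values, per the file headers. A Benjamini-Hochberg adjustment of the deposited p-values over tested genes gave their q-values to within 5.2e-07. Group letters W and M were read as WT and vKO. Locus starts were converted to count from 1.

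Log2 ratios used a pseudocount of 1. Length and GC content came from the longest coding GENCODE M21 transcript (99.0% of tested cortex genes), and the trend was removed by subtracting the median of 100 length and GC cells, a step tested on simulated data. Copies were sought with BLAST 2.17.0 (95% identity, 200 bases), which found Gm48008 for Tgfb3. Python 3.11.15, pandas 2.3.3 and Biopython 1.88 were used.

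The members and lists were chosen with earlier results of these data known. Named genes were all members, up to 4 called genes per list and tissue, and otherwise the 2 with the highest FPKM. Alternatives were other q-value thresholds, pseudocounts, an FPKM minimum, a fold minimum, centring and the trend removal.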

Additional observations from a re-analysis of the deposited data

How the results depend on the processing

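No member was called in either tissue at a q-value under 0.01 or 0.1, with p-values readjusted over genes of at least 1 FPKM, or with a 1.5-fold minimum. Of the other pathway genes in subcortex, 0 were called at a q-value under 0.01, against 3 at 0.05. In cortex the 12 calls (8 lower) were 8 (4 lower) with the 1.5-fold minimum, 16 (12 lower) at a q-value under 0.1 and 11 (7 lower) under 0.01, with 4 higher throughout. The members' median log2 ratio in cortex was -0.08, -0.09 with a pseudocount of 0.1, -0.10 with none and 0.04 after removal of the trend with length and GC content; in subcortex it was 0.06, and 0.07, 0.07 and 0.09 under the same settings. The trend removal turned the sign of 4 ratios, none of them called: Itgav, Itgb8 and Tgfbr2 in cortex, at 0.08, 0.03 and 0.36, and Smad7 in subcortex, at -0.02. The cause was not tested. The other 64 of 68 alternative values for tested members did not change sign. No paired analysis was possible because the tables hold 1 value per group, and for the same reason no replicate could be left out. Without depth or spread, small differences in low genes such as Smad6 and Tgfb1 cannot be judged.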
